A study of Mus musculus with 37 samples.

Results

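The genes examined here encode the catalytic subunit of the BAP1 deubiquitinase complex and the proteins known to work with it: Bap1, the cofactors Asxl1, Asxl2 and Asxl3, the cofactor Hcfc1, the glycosyltransferase Ogt, the DNA-binding partners Foxk1 and Foxk2, the demethylase Kdm1b and the methyl-CpG-binding family protein Mbd5. They were chosen by gene symbol from knowledge of the complex, and all 10 were present among the 55401 genes of each of the study's expression tables. The study removed BAP1 from mouse oocytes and followed gene expression in the oocytes, the eggs and the embryos they gave. There were 26 libraries of total RNA, covering 5 early stages, and 11 poly(A) libraries, covering 3 tissues of the embryo at embryonic day 6.5 (E6.5).

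Control females were Bap1 flox/flox and knockout females were Gdf9-iCre, Bap1 flox/flox, so the floxed allele was carried by the mothers of every group. Gdf9 is an oocyte gene, and recombination by its iCre takes place in the oocyte. Fully grown oocytes (FGO) and MII eggs (MII) had these genotypes themselves. Late 1-cell (L1C), early 2-cell (E2C) and late 2-cell (L2C) embryos came from such eggs and B6 males, and the E6.5 epiblast (EPI), visceral endoderm (VE) and extraembryonic ectoderm (EXE) came from PWK males. The knockout embryos were therefore maternal knockouts with a paternal allele from an unmodified male. There were 2 control and 3 knockout libraries at FGO, MII, L1C and L2C, 3 of each at E2C, 2 of each in EPI and VE, and 1 control and 2 knockout libraries in EXE. The labels do not say whether replicates came from separate animals, so each p-value measures only the spread between these libraries. All samples were bulk material, in which fewer transcribing cells and less RNA per cell cannot be told apart.

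As background, BAP1 is a ubiquitin hydrolase that removes ubiquitin from histone H2A, the mark written by Polycomb repressive complex 1 (PRC1). Its activity on chromatin needs a bound ASXL protein, and the ASXL paralogues are thought to take each other's place in the complex. HCFC1 is a chromatin-bound host cell factor that binds BAP1 directly, OGT adds N-acetylglucosamine to HCFC1 and many other proteins, FOXK1 and FOXK2 are forkhead factors that bring the complex to DNA, and MBD5 and its relative MBD6 bind the complex through the ASXL proteins. KDM1B removes methyl groups from lysine 4 of histone H3 and is needed in the growing oocyte for the DNA methylation of maternally imprinted genes.

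The 3 members whose levels between early and late 2-cell stages are described most closely below differ in the sequence just before their start sites, and these are shown so that the values can be read beside them. Each run covers 250 bases upstream of the RefSeq start in GRCm38.p6, written 5′ to 3′ on the gene's strand. Capitals mark CCGCCC (either strand), the core of the GC box that SP and KLF factors bind, and AAGATGGC (either strand), the core of the YY1 site. Kdm1b is at chr13:47043249-47043498 (plus strand), Foxk2 at chr11:121259737-121259986 (plus strand) and Hcfc1 at chrX:73966358-73966607 (minus strand).
Kdm1b: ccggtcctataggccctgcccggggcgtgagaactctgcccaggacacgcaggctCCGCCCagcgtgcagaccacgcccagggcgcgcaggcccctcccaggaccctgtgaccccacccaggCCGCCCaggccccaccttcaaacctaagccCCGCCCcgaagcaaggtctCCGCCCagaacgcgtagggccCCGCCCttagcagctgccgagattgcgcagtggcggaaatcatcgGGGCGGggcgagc
Foxk2: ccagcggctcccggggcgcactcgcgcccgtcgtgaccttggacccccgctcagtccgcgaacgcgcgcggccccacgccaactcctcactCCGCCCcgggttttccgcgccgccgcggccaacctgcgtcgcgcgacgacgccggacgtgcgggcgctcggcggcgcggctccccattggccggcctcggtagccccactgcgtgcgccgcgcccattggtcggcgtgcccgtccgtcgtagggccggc
Hcfc1: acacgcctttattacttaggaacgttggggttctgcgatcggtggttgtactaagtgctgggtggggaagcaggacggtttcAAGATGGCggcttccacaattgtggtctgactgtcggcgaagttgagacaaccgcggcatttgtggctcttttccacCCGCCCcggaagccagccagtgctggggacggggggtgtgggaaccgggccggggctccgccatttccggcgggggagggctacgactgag
The Kdm1b window held 6 matches to CCGCCC, whereas Foxk2 and Hcfc1 held 1 each, and the marked matches did not overlap. Of the members not printed, Bap1 held 3, Asxl1 held 2, Mbd5 held 4 and 0 at different starts, and Asxl2 and each Ogt start held 1. No window of Asxl3 or Foxk1 was examined. Among 32851 RefSeq promoter windows of the same length, 32.7% had at least 1 CCGCCC. The Hcfc1 window held 1 match to AAGATGGC, present in 1.56% of windows. Another motif, CACGTG, the E-box bound by USF and MYC factors, was absent from the 3 printed windows and present in 6.02% of all windows. These matches describe letters in a window and no binding was measured.

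The values are FPKM, from which read depth could not be recovered, and counting error is therefore unknown. Their sum over all genes was 300668 to 430784 in total RNA libraries and 593705 to 704522 in poly(A) libraries. The summed level of 8 oocyte markers, such as Gdf9 and Zp3, was 478 to 3599 FPKM in the early libraries. Each E6.5 lineage had a higher sum of its own markers than the other lineages had. EXE libraries also held 408 to 506 FPKM of 6 epiblast markers, beside 425 to 533 FPKM of 6 EXE markers. VE libraries held 413 to 631 FPKM of 6 decidua and parietal endoderm markers, with Dcn and Col1a1 at 0. EPI and EXE libraries held 31.5 to 49.4 FPKM of these 6. Which genes carried these sums, and from which cells they came, was not tested. Of 10 granulosa and cumulus cell markers, the sum from FGO to E2C was 20.6 to 30.2 FPKM in controls and 11.6 to 17.6 FPKM in knockouts. It was highest in L2C embryos, with 47.7 to 49.0 FPKM in controls and 23.2 to 34.5 FPKM in knockouts. At each of the 5 stages every knockout library lay below every control library. Which of the 10 genes carried the sum, and whether it came from granulosa or cumulus cells, was not tested. Among the defining genes of that list, Inha was at 0 in every MII, L1C, E2C and L2C library. Amhr2 was at 0 in every MII and L1C library of both genotypes and in every knockout FGO library. The part of this difference in the results below was not tested.

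Differences are log2 fold changes of FPKM + 1 from limma, with Benjamini-Hochberg adjusted p over 15184 genes at the early stages and 13914 genes at E6.5. A gene is said to have risen or fallen where the adjusted p was under 0.05. All 10 members passed the filter on low values at the early stages, and 9 did at E6.5, where Asxl3 was left out.

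Bap1 (ENSMUSG00000021901.10, chromosome 14, 31251450 to 31259944, plus strand, GRCm38) checked the genotype labels, and every knockout library of the 5 early stages lay below every control library. Controls had 16.3 and 29.2 FPKM in FGO, 29.9 and 28.5 in MII, 24.7 and 25.2 in L1C, 23.5, 29.2 and 24.8 in E2C, and 24.4 and 20.9 in L2C. Knockouts had 4.98, 3.76 and 4.49 FPKM in FGO, 4.92, 5.13 and 4.15 in MII, 4.21, 5.51 and 5.68 in L1C, 7.05, 6.67 and 6.77 in E2C, and 9.69, 11.7 and 10.0 in L2C. The knockout mean was thus 19.4%, 16.2%, 20.6%, 26.4% and 46.3% of the control mean from FGO to L2C. The log2 differences were −2.09, −2.40, −2.09, −1.77 and −1.04, with adjusted p from 9.5e-11 in MII to 0.0035 in L2C. The L2C call was lost in 2 of 15 alternatives, no filter on low values among them (the adjusted p over all alternatives ran from 5.1e-05 to 0.062).

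Control Bap1 stayed between 20.9 and 29.9 FPKM except for FGO replicate 1. No step between consecutive stages passed the test in controls or in knockouts. In knockouts the adjusted p was 0.20 from L1C to E2C and 0.084 from E2C to L2C. The change of the knockout effect from E2C to L2C did not pass either (0.729 ± 0.375, log2, SE; adjusted p = 0.20). In knockouts the level in L2C (10.5 ± 1.09 FPKM, SD, n = 3) was 2.04 times that in L1C (5.13 ± 0.80 FPKM, SD, n = 3). These groups did not overlap, as was so for 71.9% of all genes. This comparison across the 2-cell division was added after the values were seen. Bap1 rose by 0.91 ± 0.19 (log2, SE) from L1C to L2C in knockouts (adjusted p = 0.00027), in a contrast where 67.8% of all genes were called (33.1% higher, 34.7% lower), and the call held under all 16 alternatives. In controls the difference was −0.14 ± 0.24 (adjusted p = 0.62, with 69.2% of genes called). The knockout effect itself differed between L1C and L2C by 1.05 ± 0.30 (adjusted p = 0.013, with 29.1% of genes called). That difference was lost without a filter on low values and without control L2C replicate 2, with adjusted p up to 0.11. Oocytes and eggs carry no paternal allele, and their knockout libraries held 3.76 to 5.13 FPKM. The labels do not name the floxed exons, so in embryos transcripts of the recombined allele and of the paternal allele cannot be told apart.

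**Figure D1:**
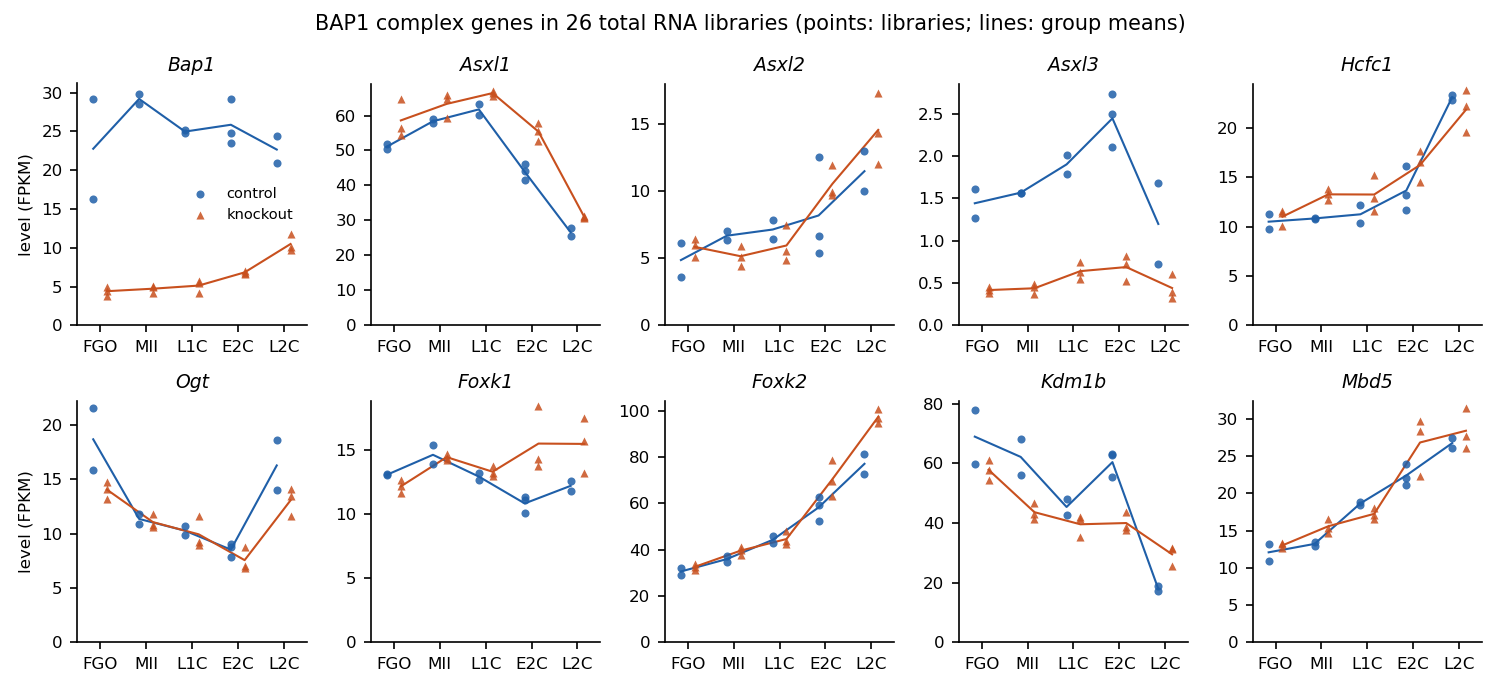
FPKM of each of the 10 genes in every total RNA library by stage (FGO, MII, L1C, E2C, L2C), with controls and knockouts side by side and lines joining the group means. Bap1 and Asxl3 knockouts lie below the controls at all 5 stages, and the Kdm1b knockouts lie below the controls in E2C (37.5 to 43.8 against 55.3 to 63.0 FPKM) and above them in L2C (25.5 to 31.7 against 17.1 to 18.8 FPKM).

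Across the knockout comparisons, 9 of the 10 members passed the test at 1 or more early stages and Asxl2 at none. The share of all genes that passed at 1 or more stages was not computed, so nothing particular to the members is read from that count. In FGO 4 members were called, 1 higher and 3 lower, against 13.9% of all genes tested (3.91% higher, 9.97% lower). In MII 5 were called, 2 higher and 3 lower, against a background of 16.8% (6.57% and 10.2%). In L1C 2 were called, both lower, against 17.6% (7.6% and 10.0%). In E2C 4 were called, 1 higher and 3 lower, against 13.5% (6.2% and 7.28%). In L2C 4 were called, 2 higher and 2 lower, against 34.2% (17.0% and 17.2%). Bap1, the deleted gene, is 1 of the lower members at every stage. The median log2 difference of the 10 members was −0.02, −0.03, −0.08, 0.24 and 0.15 from FGO to L2C, beside medians of all genes of 0.00, 0.00, 0.01, 0.00 and 0.03.

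**Figure D2:**
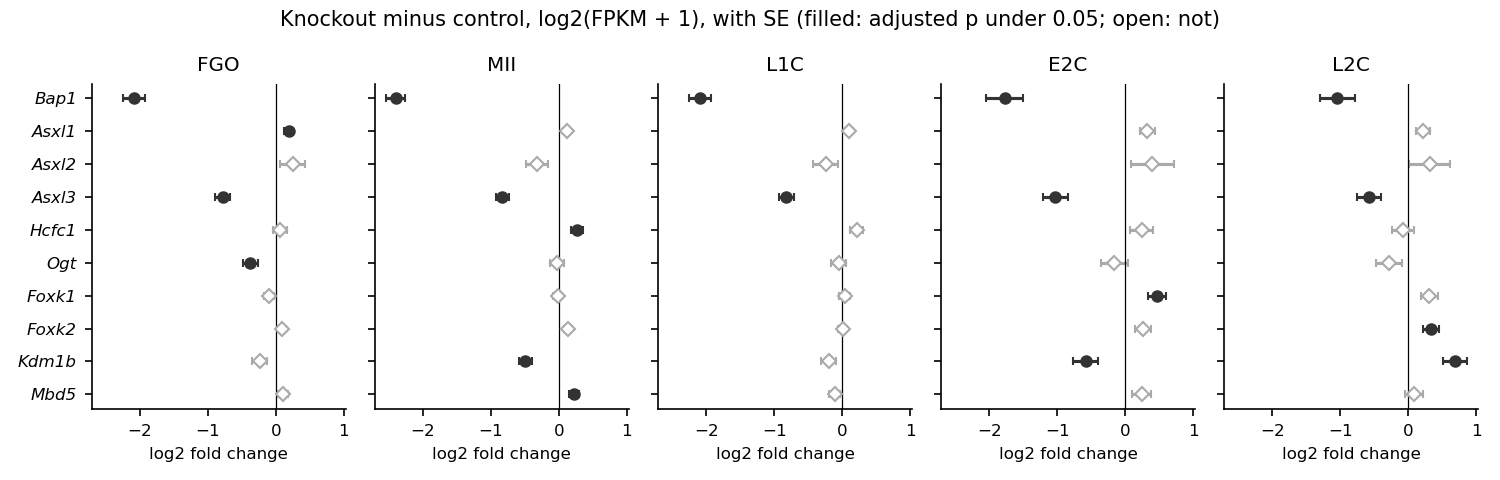
Log2 differences, knockout minus control, of FPKM + 1 for each gene and early stage, with bars of 1 standard error and filled points where the adjusted p was under 0.05. Bap1 and Asxl3 are lower at all 5 stages, while Kdm1b passes from −0.58 in E2C to 0.69 in L2C.

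Asxl3 was the other member that fell in the knockout at all 5 early stages, a pattern shared by 203 genes, 1.34% of those tested. ASXL3 is an ASXL paralogue best known from the developing brain. Its gene (ENSMUSG00000045215.17) had low levels throughout. Controls had 1.27 and 1.61 FPKM in FGO, 1.57 in both MII libraries, 1.79 and 2.01 in L1C, 2.11, 2.49 and 2.73 in E2C, and 1.67 and 0.72 in L2C. Knockouts had 0.39 to 0.45 FPKM in FGO, 0.38 to 0.49 in MII, 0.54 to 0.75 in L1C, 0.52 to 0.82 in E2C, and 0.32 to 0.60 in L2C. No knockout library reached a control library of its stage, although in L2C the lower control (0.72 FPKM) lay close to the highest knockout (0.60 FPKM). The log2 differences were −0.78, −0.84, −0.82, −1.03 and −0.58, with adjusted p from 1.9e-06 in MII to 0.015 in L2C. The FGO, MII, L1C and E2C calls held under every alternative that kept the gene. The L2C call was lost in 4 of 13 alternatives, among them without control replicate 1 (−0.26, adjusted p = 0.39), without knockout replicate 2 and with no filter on low values. The knockout means were 28.9%, 28.0%, 33.7%, 28.2% and 36.9% of the control means on the FPKM scale, where the added 1 of the log scale plays no part.

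The major ASXL gene of the oocyte was Asxl1, which encodes the paralogue most often studied in blood cells. Control Asxl1 was 50.3 and 51.9 FPKM in FGO, 58.9 and 57.8 in MII, 60.3 and 63.2 in L1C, 41.5, 46.1 and 44.2 in E2C, and 25.5 and 27.8 in L2C. It fell from L1C to E2C by 0.48 ± 0.09 and from E2C to L2C by 0.70 ± 0.11 (log2, SE), with adjusted p of 0.00018 and 1.9e-05, and both calls held under every alternative. Knockouts followed the same course, from 65.7 to 67.1 FPKM in L1C to 52.7 to 57.8 in E2C and 30.8 to 31.2 in L2C. Every knockout library lay above every control library of its stage from FGO to L2C. Only the FGO difference passed the test (0.19 ± 0.06, adjusted p = 0.049), and it was lost under 11 of 15 alternatives, with adjusted p up to 0.26. In E2C, where the gap was 55.4 ± 2.53 against 43.9 ± 2.35 FPKM (SD, n = 3 each), the log2 difference was 0.33 ± 0.11 with an adjusted p of 0.05041, just past the threshold. It passed under 5 of 16 alternatives, the 3 other scalings among them. Groups that do not overlap were common among all genes, at 41.8% in FGO, 41.7% in MII, 43.0% in L1C, 29.7% in E2C and 56.8% in L2C.

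Asxl2, which encodes the paralogue needed for normal heart development, did not pass the test between genotypes at any early stage. Its control range was 3.60 to 7.83 FPKM from FGO to L1C, 5.39 to 12.5 in E2C and 9.99 to 13.0 in L2C. Its knockout range was 4.46 to 7.45 FPKM from FGO to L1C, 9.72 to 12.0 in E2C and 12.0 to 17.4 in L2C. In knockouts Asxl2 rose from L1C to E2C by 0.74 ± 0.26 (adjusted p = 0.023), a call lost without any of 3 single libraries (knockout L1C replicate 1, knockout E2C replicates 1 and 3) and without a filter. From L1C to L2C it rose by 1.16 ± 0.23 in knockouts (adjusted p = 0.00011) and was 0.61 ± 0.28 higher in controls (adjusted p = 0.055). The difference between these changes was 0.55 ± 0.36 (adjusted p = 0.27).

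FPKM is a level per length, so the paralogues can be set beside each other within a library. Asxl1 made up 89.0 ± 2.63% of the summed ASXL FPKM in control FGO (SD, n = 2), 87.2 ± 1.01% in L1C, 80.6 ± 5.83% in E2C (n = 3) and 67.8 ± 1.21% in L2C. In knockout L2C, Asxl1 made up 67.5 ± 4.24% and Asxl2 31.6 ± 3.99% (n = 3). Asxl3 had mean shares of 2.35% to 4.50% in controls and 0.64% to 1.04% in knockouts. The summed ASXL FPKM divided by Bap1 FPKM was 2.75 ± 1.12 in control FGO and 1.75 ± 0.32 in control L2C (n = 2 each). In knockouts, where Bap1 was deleted, the same ratio was 14.8 ± 1.05 in FGO and 4.43 ± 0.67 in L2C (n = 3 each). These ratios are of transcripts and were not tested.

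**Figure D3:**
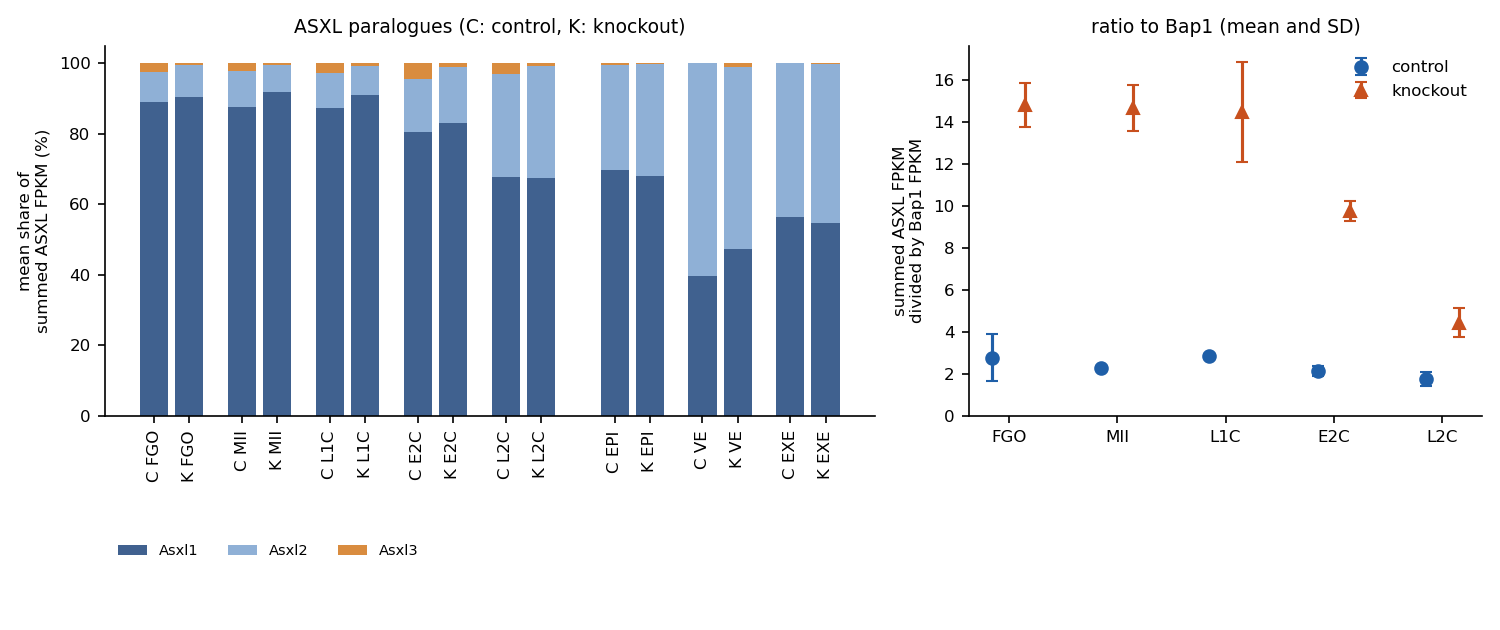
Left, mean percent of the summed ASXL FPKM from Asxl1, Asxl2 and Asxl3 in each group (C control, K knockout). Right, summed ASXL FPKM divided by Bap1 FPKM at the early stages, mean and SD, falling in knockouts from 14.8 in FGO to 4.43 in L2C beside 2.75 to 1.75 in controls.

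Over the steps between consecutive stages, controls had 1 member called from FGO to MII (background 5.39% of genes), 3 from MII to L1C (25.4%), 3 from L1C to E2C (47.2%) and 6 from E2C to L2C (51.7%). Knockouts had 5 (13.8%), none by limma (16.4%), 4 (41.7%) and 5 (45.5%) at the same steps. The shares of all genes higher and lower at these 4 steps were 1.3% and 4.1%, 9.6% and 15.8%, 18.1% and 29.1%, and 29.2% and 22.5% in controls. In knockouts they were 6.49% and 7.35%, 5.36% and 11%, 15.2% and 26.5%, and 27.4% and 18.1%. At the step from MII to L1C in knockouts, where no member was called, 1 had an unadjusted p under 0.05. The tests of the knockout effect between consecutive stages called no member from FGO to MII (0% of genes called), MII to L1C (0.198%) or L1C to E2C (3.35%), with 2 members at an unadjusted p under 0.05 in each. From E2C to L2C they called 1 member, Kdm1b, against 18.9% of all genes.

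Kdm1b (ENSMUSG00000038080.17, chromosome 13, 47043499 to 47085279, plus strand) was the only member whose knockout effect passed the test in opposite directions at different stages. Controls had 59.9 and 78.0 FPKM in FGO, 56.2 and 68.1 in MII, 42.7 and 48.1 in L1C, 55.3, 63.0 and 62.9 in E2C, and 17.1 and 18.8 in L2C. Knockouts had 61.2, 54.5 and 57.8 FPKM in FGO, 42.9, 46.7 and 41.3 in MII, 42.1, 35.2 and 41.5 in L1C, 38.6, 43.8 and 37.5 in E2C, and 25.5, 31.7 and 31.4 in L2C. The genotypes overlapped in FGO, every knockout library lay below every control in MII, L1C and E2C, and every knockout lay above in L2C. The differences in FGO (−0.24 ± 0.11, log2, SE; adjusted p = 0.15) and L1C (−0.195 ± 0.108, adjusted p = 0.25) did not pass the test.

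Kdm1b was lower in knockout MII eggs by 0.50 ± 0.10 (log2, SE; adjusted p = 0.00072), a call lost without control MII replicate 2 (adjusted p = 0.052). In E2C it was lower by 0.58 ± 0.18 (adjusted p = 0.040), a call lost in 12 of 16 alternatives, every removal of a single library among them, with adjusted p from 0.00046 to 0.12. In L2C it was higher by 0.69 ± 0.18 (adjusted p = 0.0044), a call lost in 3 of 15 alternatives, among them without control L2C replicate 1 and without a filter, with adjusted p up to 0.070. The change of the knockout effect from E2C to L2C was 1.27 ± 0.25 (adjusted p = 0.00125) and held under all 20 alternatives, between 1.20 and 1.37. Against L1C in place of E2C the change was 0.88 ± 0.21 (adjusted p = 0.0028) and held under all 19. The effect was thus negative in the early 2-cell embryo and positive in the late one, and the change between these stages exceeded the spread between libraries.

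The fall of Kdm1b between E2C and L2C was 1.70 ± 0.19 in controls (adjusted p = 1.7e-07, every alternative) and 0.43 ± 0.17 in knockouts (adjusted p = 0.046). The knockout call was lost in 8 of 16 alternatives. Marker levels of stage moved in the same libraries. The summed level of 8 oocyte markers was 478 to 504 FPKM in control L2C and 778 to 907 FPKM in knockout L2C, where none was at 0. The summed level of 8 markers of the 2-cell embryo, such as Zscan4c and Zfp352, was 246 to 333 FPKM in control E2C and 108 to 229 FPKM in knockout E2C. In L2C it was 110 to 114 FPKM in controls and 329 to 428 FPKM in knockouts, again with none at 0. The part of these differences in the Kdm1b result was not tested.

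Of the 5495 exonic bases of Kdm1b, 505 overlap exons of Dek on the opposite strand. Whether the authors' counting used the strand is not given in the sources used here. Dek had 97.5 to 114 FPKM in control and 81.1 to 96.3 in knockout E2C, and 120 to 141 in control and 150 to 155 in knockout L2C. Its knockouts thus lay below the controls in E2C and above them in L2C, as those of Kdm1b did, while its level from E2C to L2C was higher in both genotypes, where that of Kdm1b was lower. The part of reads from Dek in the Kdm1b values was not tested. None of the 50-base words of Kdm1b's transcripts was found in the transcripts of another annotated gene, each read on its own strand. Reverse complements were not searched, so this does not cover the overlap with Dek.

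Foxk2 was the more abundant of the forkhead genes, and its mean was higher at each later stage in both genotypes. Control Foxk2 was 32.2 and 29.1 FPKM in FGO, 37.1 and 34.8 in MII, 42.7 and 45.8 in L1C, 63.0, 52.6 and 59.2 in E2C, and 81.3 and 72.8 in L2C. Knockouts had 31.4 to 34.0 FPKM in FGO, 37.7 to 41.2 in MII, 42.3 to 47.9 in L1C, 63.1 to 78.7 in E2C and 94.5 to 101 in L2C. The last of these groups lay wholly above its controls, at a stage where 56.8% of all genes had groups that did not overlap. Foxk2 rose from L1C to L2C by 0.79 ± 0.10 in controls and 1.11 ± 0.08 in knockouts (adjusted p = 8.0e-07 and 1.7e-10, each held under every alternative). The control steps from L1C to E2C (0.385) and E2C to L2C (0.40) were each lost when libraries were scaled to the same sum (0.20 and 0.22). The second was also lost under median centring (0.15, adjusted p = 0.33), without control L2C replicate 1 (0.32) and without control E2C replicate 2 (0.33). In L2C Foxk2 was higher in knockouts by 0.33 ± 0.11 (adjusted p = 0.026), a call lost in 5 of 15 alternatives, among them without control replicate 2, without knockout replicate 2 or 3 and without a filter, with adjusted p up to 0.22.

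Foxk1 kept a narrow range in control stages, from 10.1 to 15.4 FPKM, and no control step passed the test. In E2C the controls had 11.4, 11.1 and 10.1 FPKM and the knockouts 18.5, 14.4 and 13.8 FPKM, with no overlap, as for 29.7% of all genes. The log2 difference was 0.47 ± 0.13 (adjusted p = 0.019), and it was lost without knockout replicate 1, without control replicate 3 and when the stage was fitted alone (adjusted p up to 0.11). In L2C, with 11.8 and 12.6 FPKM against 13.2, 17.5 and 15.7 FPKM, the difference was 0.31 ± 0.12 (adjusted p = 0.057), which passed under 6 of 15 alternatives. Foxk2 made up 70.0 ± 1.60% of the summed FOXK FPKM in control FGO and 86.3 ± 1.47% in control L2C (SD, n = 2 each). In knockouts it was 72.8 ± 1.33% and 86.3 ± 1.55% (n = 3 each), and these shares were not tested.

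Hcfc1 and Ogt both lie on the X chromosome and both rose at the late 2-cell stage. Control Hcfc1 was 9.75 to 12.1 FPKM from FGO to L1C, 11.7, 13.2 and 16.1 in E2C, and 22.8 and 23.4 in L2C. Knockout Hcfc1 was 10.1 to 15.2 FPKM from FGO to L1C, 17.7, 16.5 and 14.5 in E2C, and 22.2, 23.8 and 19.5 in L2C, so the genotypes ended at overlapping levels. From E2C to L2C it rose by 0.73 ± 0.17 in controls (adjusted p = 0.0014, every alternative) and 0.41 ± 0.16 in knockouts (adjusted p = 0.042, lost in 9 of 16). From L1C to L2C it rose by 0.98 ± 0.15 and 0.68 ± 0.12, both held under every alternative. Between genotypes Hcfc1 was higher in knockout MII eggs (12.7, 13.8 and 13.3 against 10.9 and 10.7 FPKM; log2 difference 0.27 ± 0.09, adjusted p = 0.040). That call was lost in 7 of 15 alternatives, the removal of either control and of knockout 1 or 2 among them. Over all alternatives the adjusted p was up to 0.34.

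Ogt had its lowest levels in the early 2-cell embryo. Control Ogt was 15.8 and 21.5 FPKM in FGO, 10.9 and 11.8 in MII, 10.7 and 9.85 in L1C, 9.01, 8.75 and 7.80 in E2C, and 18.6 and 14.0 in L2C. Knockout Ogt was 14.1, 14.8 and 13.2 FPKM in FGO, 10.6 to 11.8 in MII, 8.96 to 11.6 in L1C, 6.81 to 8.80 in E2C and 11.7 to 14.1 in L2C. From E2C to L2C it rose by 0.85 ± 0.20 in controls and 0.72 ± 0.18 in knockouts (adjusted p = 0.0013 and 0.0028), each under every alternative. Ogt fell from FGO to MII by 0.66 ± 0.12 in controls (adjusted p = 0.0013) and by 0.32 ± 0.10 in knockouts (adjusted p = 0.032). The knockout call was lost in 9 of 16 alternatives (adjusted p up to 0.21). The control call was lost with the stages compared alone and without FGO replicate 2, the library with 21.5 FPKM (adjusted p up to 0.079). The difference between genotypes in FGO, −0.37 ± 0.11 (adjusted p = 0.032), was −0.16 without the same library (adjusted p = 0.56), and the call was lost in 7 of 15 alternatives.

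Mbd5, like Foxk2, had a higher control mean at each later stage. Control Mbd5 was 10.97 and 13.2 FPKM in FGO, 13.5 and 13.0 in MII, 18.4 and 18.9 in L1C, 21.2 to 24.0 in E2C, and 27.4 and 26.1 in L2C. Knockout Mbd5 was 12.6 to 13.3 FPKM in FGO, 14.8 to 16.6 in MII, 16.5 to 18.1 in L1C, 22.3 to 29.7 in E2C and 26.1 to 31.4 in L2C. In controls the rise was called from MII to L1C (0.47 ± 0.08, adjusted p = 0.00023, every alternative). In knockouts it was called from FGO to MII (0.24 ± 0.07, adjusted p = 0.018, lost in 4 of 16) and from L1C to E2C (0.60 ± 0.11, adjusted p = 0.00013, every alternative). The knockout effect itself did not pass the test between L1C and E2C (0.35 ± 0.16, adjusted p = 0.27). Mbd5 was higher in knockout MII eggs by 0.22 ± 0.07 (adjusted p = 0.033), a call lost in 6 of 15 alternatives, the removal of either control and of knockout 1 or 2 among them. Over all alternatives the adjusted p was up to 0.36.

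At E6.5 the maternal knockouts no longer had less Bap1 than the controls. Control Bap1 was 22.6 and 14.1 FPKM in EPI, 14.0 and 15.6 in VE and 21.8 in EXE. Knockout Bap1 was 21.8 and 33.8 FPKM in EPI, 18.4 and 19.4 in VE and 24.0 and 23.1 in EXE. No knockout library was below the range of its controls. The log2 differences were 0.57 ± 0.38, 0.33 ± 0.28 and 0.11 ± 0.30, and limma called none (adjusted p = 1.0, 1.0 and 0.99).

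None of the 9 members tested was called between genotypes at E6.5 by limma, and 0 had an unadjusted p under 0.05 in any lineage. Of all 13914 genes, 0% were called in EPI (188 at an unadjusted p under 0.05), 0.00719% in VE (361) and 0.0216% in EXE (641). In EXE the single control was assumed to vary like the other groups. Standard errors of the members ran from 0.28 to 1.09 here, compared with 0.06 to 0.32 at the early stages, so only large differences could have passed.

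Hcfc1 had the widest spread at E6.5. Control EPI libraries had 43.9 and 10.0 FPKM and knockout EPI libraries 4.00 and 26.8 FPKM. VE had 5.35 and 13.7 against 13.9 and 11.2 FPKM, and EXE 14.7 against 39.2 and 10.4 FPKM. The libraries also differed in Y-linked transcripts: 4 Y-linked genes summed to 25.9 to 68.0 FPKM in the first control and the second knockout library of every lineage and to 0 in the others. In EPI the libraries with that signal had more Hcfc1 in both genotypes, in VE they had less, and in EXE they held 14.7 and 10.4 FPKM beside 39.2 FPKM. With the Y-linked signal as a covariate, an alternative added after the data were seen, no member was called either.

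Across lineages, averaged over the genotypes, 2 differences passed the test. Asxl1 had 16.6, 8.70, 19.7 and 11.3 FPKM in EPI (2 controls, then 2 knockouts) and 3.02, 6.22, 4.65 and 3.65 FPKM in VE, so every EPI library lay above every VE library. The log2 difference was 1.46 ± 0.34 (adjusted p = 0.0082, with 35.8% of genes called), and it was lost without control EPI replicate 1 and without a filter (adjusted p up to 0.11). Asxl2 did not differ beyond its error (0.06 ± 0.27, adjusted p = 0.89), and in VE the mean share of Asxl1 in the ASXL sum was 39.6 ± 4.27% in controls (n = 2). Asxl3 was at most 0.11 FPKM in any E6.5 library.

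Ogt was higher in EXE, with 39.7, 52.2 and 56.8 FPKM, than in VE, with 7.55, 26.3, 29.5 and 21.2 FPKM. The log2 difference was 1.25 ± 0.34 (adjusted p = 0.020, with 31.0% of genes called). It was lost without knockout VE replicate 2, without either knockout EXE library, without a filter and without precision weights, with adjusted p up to 0.11. EXE and EPI did not differ past the threshold for any member, with 21.0% of genes called there and Ogt at 0.98 ± 0.40 (adjusted p = 0.13). No other member tested was called between lineages. For Bap1 and Foxk2, every EXE library still lay above every VE library. Bap1 had 21.8 to 24.0 FPKM in EXE and 14.0 to 19.4 in VE (limma adjusted p = 0.16). Foxk2 had 5.07 to 6.56 FPKM in EXE and 3.55 to 4.90 in VE (limma adjusted p = 0.19). The share of all genes separated in this way was not computed. Kdm1b was 0.72 to 2.94 FPKM over all E6.5 libraries, Foxk1 0.83 to 1.80, Mbd5 0.17 to 2.00 and Foxk2 3.55 to 10.9 FPKM. The E6.5 libraries are poly(A) libraries in a separate table, so these levels cannot be set against those of the oocyte on 1 scale.

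**Figure D4:**
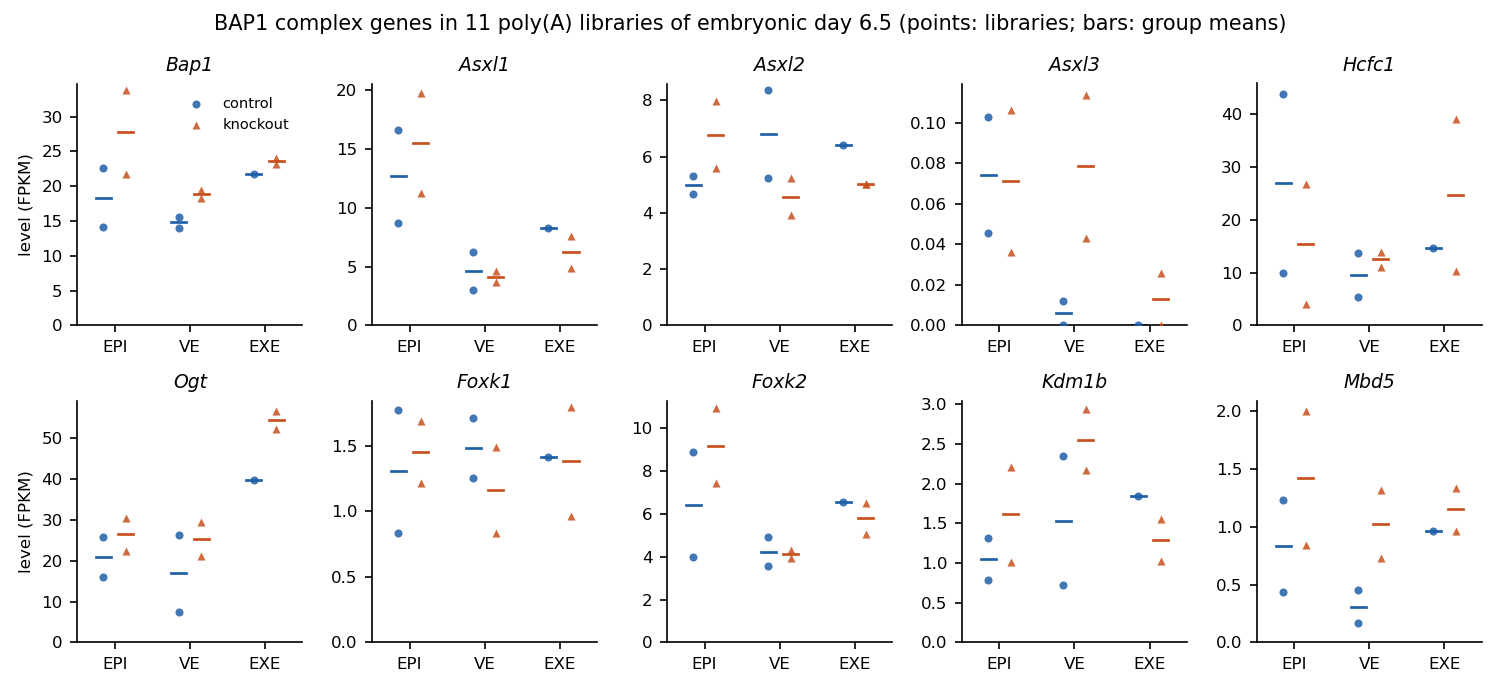
FPKM of each gene in every E6.5 library (EPI, VE, EXE; controls and knockouts). Bap1 knockouts reach or exceed the controls in each lineage (for example 18.4 and 19.4 against 14.0 and 15.6 FPKM in VE), and Ogt is highest in EXE.

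Among 19 further partners and relatives of the complex, 4 were called in FGO (1 higher, 3 lower), 4 in MII (2 and 2), 5 in L1C (3 and 2), 3 in E2C (2 and 1) and 7 in L2C (3 and 4). Medians were 0.06, 0.09, 0.13, 0.21 and −0.01. In FGO the gene that fell most was Uchl3, a ubiquitin hydrolase of BAP1's own family (−0.36, adjusted p = 0.0082, lost in 5 of 15 alternatives). In L2C the gene that fell most was Adrm1, the proteasome's ubiquitin receptor that binds the hydrolase UCHL5 (−1.32 ± 0.17, adjusted p = 6.2e-06), with 46.9 to 51.2 FPKM in controls and 17.8 to 20.5 in knockouts. Uchl1, another hydrolase of the family, rose most in L2C (0.75 ± 0.12, adjusted p = 5.8e-05; 117 to 138 against 202 to 221 FPKM). In E2C the gene that rose most was Nfrkb, a subunit of the INO80 chromatin remodeller that also binds UCHL5 (1.15 ± 0.21, adjusted p = 0.00096), and the one that fell was Kdm6a, an H3K27 demethylase (−0.41, adjusted p = 0.031, lost in 12 of 16). Ube2o, the enzyme that ubiquitinates BAP1, had the most negative change of the knockout effect from E2C to L2C (−1.88 ± 0.24, adjusted p = 1.4e-05). It stood at 3.30 to 5.53 FPKM in control and 6.17 to 9.29 in knockout E2C, and at 59.8 to 73.0 in control and 23.2 to 29.5 in knockout L2C.

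Other genes write or erase the mark that BAP1 removes. Of 13 PRC1 genes, 11 were tested, and 1 was called in each of FGO, L1C and E2C and 3 in L2C. Rnf2, the catalytic subunit of PRC1, was lower in FGO (−0.24, adjusted p = 0.040, lost in 14 of 15 alternatives) and L1C (−0.28, adjusted p = 0.014, lost in 4 of 15). Kdm2b, which brings a PRC1 variant to CpG islands, was higher in E2C (0.77 ± 0.17, adjusted p = 0.0044; 66.9 to 95.1 against 111 to 178 FPKM). In L2C Bcorl1, a cofactor of that variant, was lower (−0.75, adjusted p = 0.00060) and Rybp, a subunit that stimulates PRC1, was higher (0.48, adjusted p = 0.036, lost in 5 of 15). Of 9 other H2A deubiquitinases, 1 was called in FGO and in MII and 3 in L1C and in L2C. Mysm1, which also removes ubiquitin from H2A, was lower in L2C (−0.73 ± 0.17, adjusted p = 0.0017; 12.4 to 16.0 against 6.96 to 9.61 FPKM), a call lost in 1 of 15 alternatives. Usp46 was lower in FGO (−0.28, adjusted p = 0.0036, lost in 4 of 15) and higher in L2C (0.50, adjusted p = 0.00078). These counts are to be read against the shares of all genes called at the same stages, 13.9%, 16.8%, 17.6%, 13.5% and 34.2% from FGO to L2C, and nothing particular to the lists is read from them. The calls named here without a count of losses held under every alternative.

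The genes whose levels followed each member most closely over the 26 early libraries are given as a description. These libraries share stages and genotypes, and 6273 genes, each averaging 5 FPKM or more, were compared by Pearson's r. For Bap1 they were Ctnnd1 (r = 0.946), which encodes the adhesion protein p120 catenin, Brwd3 (0.934) and the prolactin receptor gene Prlr (0.927). Prlr ran from 0.11 to 25.1 FPKM. For Asxl3 it was Igsf11 (0.932), for Kdm1b Zfp616 (0.926), for Asxl1 the translation factor gene Eif4b (0.983), and for Foxk2 the ubiquitin ligase gene Ube4b (0.986). For Mbd5 it was Atxn1l (0.975), for Hcfc1 Xpr1 (0.947), for Asxl2 Cdc42bpb (0.891), for Ogt Smarcd2 (0.886) and for Foxk1 Txndc16 (0.785).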

How the data were processed

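RNA of mouse oocytes, eggs and early embryos (26 total RNA libraries) and of E6.5 lineages (11 poly(A) libraries) was measured. The deposited values are FPKM, 1 column per library, although the headers end in rpkm. The submitters' processing notes name Trim Galore 0.6.6, STAR 2.7.9, StringTie 2.1.7 and mm10; the annotation, filters and use of strand are not given in the sources used here. In the first control EPI library the authors' deposited values include 1 gene below 0 (−1e-06), and that value was set to 0. Ratios of low FPKM values between neighbouring columns did not pile up on steps (at most 1.12% of low genes shared 1 ratio), so whole reads could not be recovered. Depth is unknown, and the number of libraries limits the precision.

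The scale was log2(FPKM + 1), which understates the change of low genes, and a gene entered where 2 or more libraries reached 1 FPKM. Group means were fitted with limma 3.58.1 in R 4.3.3 (lmFit with arrayWeights by stage or lineage, eBayes with trend, two-sided, Benjamini-Hochberg over all genes in each contrast), once for each table. The weights let the wider spread of early 2-cell libraries differ from that of other stages. Python 3.11.15, pandas 2.3.3 and matplotlib 3.10.9 made tables and plots, and the test scripts were tested on simulated data.

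Groups come from the sample titles. The members and gene lists were chosen with earlier results of these data known, and the contrasts of L2C with L1C were added after the values were seen. Named from each list were the genes that rose and fell most in a comparison, and, for likeness, the gene with the highest r (3 for Bap1) with a mean of at least 5 FPKM; 1 gene of the lists is not reported here. Positions are from GENCODE M21 (GRCm38), which held 54349 of the 55401 identifiers with the same version. Promoters are from RefSeq (GRCm38.p6). Windows of 8 members were used and 3 are printed, while none was used for Asxl3 or Foxk1. Alternatives were a pseudocount of 0.1, other filters and scalings, no weights, no trend, stages alone, a replicate block and leaving out each library. EXE, with 1 control, was fitted with the other lineages.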

Additional observations from a re-analysis of the deposited data

Results flagged for a closer look

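The knockout effect on Kdm1b differed between stages by the interaction test of limma. It was 1.27 ± 0.25 (log2, SE, adjusted p = 0.00125) more positive in late 2-cell than in early 2-cell embryos, with 18.9% of all genes called. Against late 1-cell embryos it was 0.88 ± 0.21 (adjusted p = 0.0028) more positive, with 29.1% of genes called. The contrast with late 1-cell embryos was added after the values were seen. In 3 of 3 knockout libraries Kdm1b was above both controls in L2C, and in 3 of 3 it was below every control in E2C and in L1C. The L1C difference itself did not pass the limma test (adjusted p = 0.25). Groups did not overlap for 56.8% of all genes in L2C, 29.7% in E2C and 43.0% in L1C.

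The knockout effect on Bap1 also differed between stages, being 1.05 ± 0.30 (adjusted p = 0.013) less negative in late 2-cell than in late 1-cell embryos. This contrast, too, was added after the values were seen, and 29.1% of all genes were called in it. The Bap1 call was lost without a filter on low values and without control L2C replicate 2. Between early and late 2-cell embryos the effect did not pass the test (adjusted p = 0.20). Bap1 stayed below both controls in 3 of 3 knockout L2C libraries. The recombined and the paternal allele cannot be told apart in these values.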

How the results depend on the processing

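Of 66 calls on single members, 31 held under every alternative run for them and 0 reversed. The number of members called between genotypes in FGO was 4, and 2 without a filter, with a mean of at least 5 FPKM, without precision weights, with the stage alone or with a replicate block. In MII it was 5, and 3 without precision weights or with the stage alone. In L1C it was 2, and 1 with a mean of at least 5 FPKM, where Asxl3 is no longer tested. In L2C it was 4, and 0 without a filter or with the replicate block. The block leaves knockout replicate 3 without a partner where controls have 2 libraries, and the numbers were not taken to pair samples. The block therefore says nothing of the size of an effect. Deviations of same-numbered libraries correlated at −0.08 to 0.14 at the early stages, and at 0.59 in EPI and 0.42 in VE. With 2 libraries a group, both pairs of a lineage give the same value by construction. Whether same-numbered E6.5 libraries shared embryos or a batch is not known, and the main fit took no account of it. Leaving out 1 library gave 2 to 4 members in FGO, 2 to 6 in MII, 2 in L1C, 2 or 3 in E2C and 2 to 5 in L2C. It gave 1 or 2 of the lineage differences and 1 change of the knockout effect. The knockout effect changed between consecutive stages for 1 member, and for 2 without precision weights or with the stages alone. The lineage differences were 2, and 1 without a filter or without precision weights. The cause was not tested.

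Backgrounds moved as well. Without precision weights, the genes called between genotypes, all told, numbered 126 higher and 777 lower in FGO (593 and 1514 with weights) and 2146 and 2261 in E2C (941 and 1105). With a mean of at least 5 FPKM they were 311 and 492 in FGO and 2142 and 1366 in L2C (2588 and 2609), where fewer genes are tested. Median centring gave 1153 and 1032 in FGO and 2187 and 1114 in MII (998 and 1547), and scaling to the same sum gave 3296 and 2059 in L2C, where it moved the median of all genes to 0.12. From L1C to L2C that scaling moved the median to −0.31 in controls and −0.22 in knockouts, beside −0.05 and −0.04. Groups of 2 or 3 libraries, and a single control in EXE, limit what could be detected.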

Other observations

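Some genes of the lists that passed the test between genotypes have not been given above. In MII Brca1 was higher (0.26, adjusted p = 0.036, lost in 8 of 15 alternatives), Usp12 was higher (0.30, adjusted p = 0.023, lost in 6 of 14) and Uchl3 was lower (−0.24, adjusted p = 0.042, lost in 11 of 15). In L1C Adrm1 was higher (0.37, adjusted p = 0.018, lost in 4 of 15), although it was lower in L2C, and its knockout effect differed between these stages by −1.69 ± 0.20 (adjusted p = 3.7e-06, every alternative). The H2B and H2A deubiquitinase gene Usp22 was lower in L1C (−0.42, adjusted p = 0.021, lost in 6 of 15), Usp7 was higher (0.20, adjusted p = 0.012, lost in 4 of 15) and Kdm6a was lower (−0.21, adjusted p = 0.049, lost in 14 of 15).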
